A study of Rattus norvegicus with 10 samples.

Results

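The genes described here encode the receptors for noradrenaline and adrenaline and the monoamine oxidases that break catecholamines down, in the prefrontal cortex (PFC) of rats 24 h after the start of an acute footshock (FS) session. They are 8 genes chosen by name: the adrenergic receptor genes Adra1a, Adra1b, Adra1d, Adra2a, Adra2c and Adrb1, and the monoamine oxidase genes Maoa and Maob. A gene was measured if a probe set (the group of array probes that reads 1 transcript) carried its symbol and no other in the platform annotation. This held for 7 of the 8 genes, each with 1 probe set, out of 17245 genes named this way in the whole table. Adra2a was not analysed here. The array samples were total RNA from the whole PFC of adult male Sprague–Dawley rats, 5 exposed to FS and 5 controls left undisturbed in their home cages, each rat hybridized to its own array. The FS session took 40 min, of which 20 min were shock, with a current of 0.8 mA, and FS rats were then returned to their home cages until they were killed at 24 h. The labels call the FS group Stress, and replicate numbers below are those of the labels.

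Noradrenaline reaches the PFC in fibres from the locus coeruleus in the brainstem and is released there during arousal and stress. α1 receptors couple to Gq and phospholipase C, α2 receptors to Gi and lower cyclic AMP, and β1 receptors to Gs and raise it. Released catecholamines are taken back up by transporters and are then oxidised by monoamine oxidase on the outer mitochondrial membrane. Monoamine oxidase A prefers noradrenaline and serotonin, while monoamine oxidase B, abundant in astrocytes and serotonergic neurons, prefers phenylethylamine, and both oxidise dopamine.

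The stretches upstream of the 4 genes whose FS minus control differences had the smallest p-values (Maoa, Maob, Adra2c and Adra1d) are printed for reference to the results below. Each runs 5′ to 3′ over the 250 bases before the RefSeq start site, in the build GRCr8, and capitals mark GC boxes (GGGCGG, or CCGCCC on the other strand), a motif bound by Sp family factors.
Maoa, chrX:8681373-8681622, minus strand: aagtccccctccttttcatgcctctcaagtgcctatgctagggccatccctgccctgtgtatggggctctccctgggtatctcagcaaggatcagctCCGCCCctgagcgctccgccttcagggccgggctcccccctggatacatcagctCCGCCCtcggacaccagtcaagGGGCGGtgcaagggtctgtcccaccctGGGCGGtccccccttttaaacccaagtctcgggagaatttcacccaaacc
Maob, chrX:8490155-8490404, plus strand: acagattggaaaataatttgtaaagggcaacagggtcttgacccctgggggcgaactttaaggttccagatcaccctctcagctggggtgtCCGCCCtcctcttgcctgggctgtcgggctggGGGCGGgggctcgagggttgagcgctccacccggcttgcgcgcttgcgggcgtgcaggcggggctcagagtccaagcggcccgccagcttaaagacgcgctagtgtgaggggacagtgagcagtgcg
Adra2c, chr14:79697477-79697726, minus strand: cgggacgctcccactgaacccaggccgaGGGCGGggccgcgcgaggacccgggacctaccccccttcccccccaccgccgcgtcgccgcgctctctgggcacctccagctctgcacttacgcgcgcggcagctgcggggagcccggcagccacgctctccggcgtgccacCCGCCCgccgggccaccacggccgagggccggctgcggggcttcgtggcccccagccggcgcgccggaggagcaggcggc
Adra1d, chr3:139262332-139262581, minus strand: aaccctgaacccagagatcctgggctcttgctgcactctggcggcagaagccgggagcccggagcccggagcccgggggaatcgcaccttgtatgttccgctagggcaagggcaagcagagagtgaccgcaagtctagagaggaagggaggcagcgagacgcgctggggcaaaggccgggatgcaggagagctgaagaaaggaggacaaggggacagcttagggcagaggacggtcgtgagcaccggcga

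Of the 8 genes, 7 had an entry in the promoter table, all but Adra1a. The GC box occurred 4 times upstream of Maoa, 2 times upstream of Maob and 2 times upstream of Adra2c, and 0 times upstream of Adra1d, Adra1b, Adra2a and Adrb1. Among 33469 upstream windows of this length, 30.5% held at least 1 GC box on either strand. The 7 windows were rich in G and C, from 62.4% (Maoa) to 80.4% (Adra2c), against a median of 51.2% over all windows. The share with a GC box among windows of like GC content was not computed. The CCAAT box (CCAAT, or ATTGG on the other strand) occurred once each upstream of Maob and of Adrb1, and in 34.0% of all windows. The full cAMP response element (TGACGTCA, which reads the same on both strands) was in 0 of the 7 windows, and in 1.59% of all windows. No match overlapped another motif. These letters are a description of the sequence alone.

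The values of the arrays are log2 RMA values as deposited, and a difference is FS minus control on that scale. limma tested the differences in 18304 single-symbol probe sets, those whose mean across arrays was above 4, with Benjamini–Hochberg adjustment over all of them. All 7 genes passed this filter. Levels of different probe sets are not compared with each other, since probes differ in how strongly they bind. Array medians lay between 7.32 and 7.37, and any pair of arrays correlated between 0.994 and 0.997. In RNA from whole tissue, fewer cells of a type and less RNA per cell cannot be told apart. Markers of cortical excitatory neurons were well above the filter, from 7.96 for Emx1 to 13.19 for Camk2a. Markers of striatal medium spiny neurons were also present and differed between rats of a group, with a list mean from -0.54 to 0.56 in controls and from -0.60 to 0.24 in FS rats. FS replicate 2 stood apart for choroid plexus markers, at 2.29, where the other FS rats lay between -0.40 and 0.20 and controls between -0.48 and -0.11.

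At 24 h, both monoamine oxidase genes had lower mean levels in FS rats than in controls, Adra2c was lower and Adra1d higher, and the other 3 receptor genes differed little. None of these differences passed an adjusted p of 0.05 in limma. Of the 7 genes, 4 had an unadjusted p under 0.05 (57.1%), 3 of them lower and 1 higher. Over all probe sets tested, 0 passed after adjustment (0%) and 1802 had an unadjusted p under 0.05 (9.84%), with 5.75% higher and 4.09% lower. With any 1 rat left out, between 1 and 3 of the 7 genes had an unadjusted p under 0.05, and between 1333 and 2589 of all 18304 probe sets. The median absolute difference was 0.094 for the 7 genes and 0.046 over all probe sets. The genes were chosen with earlier results of these data known, so these comparisons are a description and no test.

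**Figure D1:**
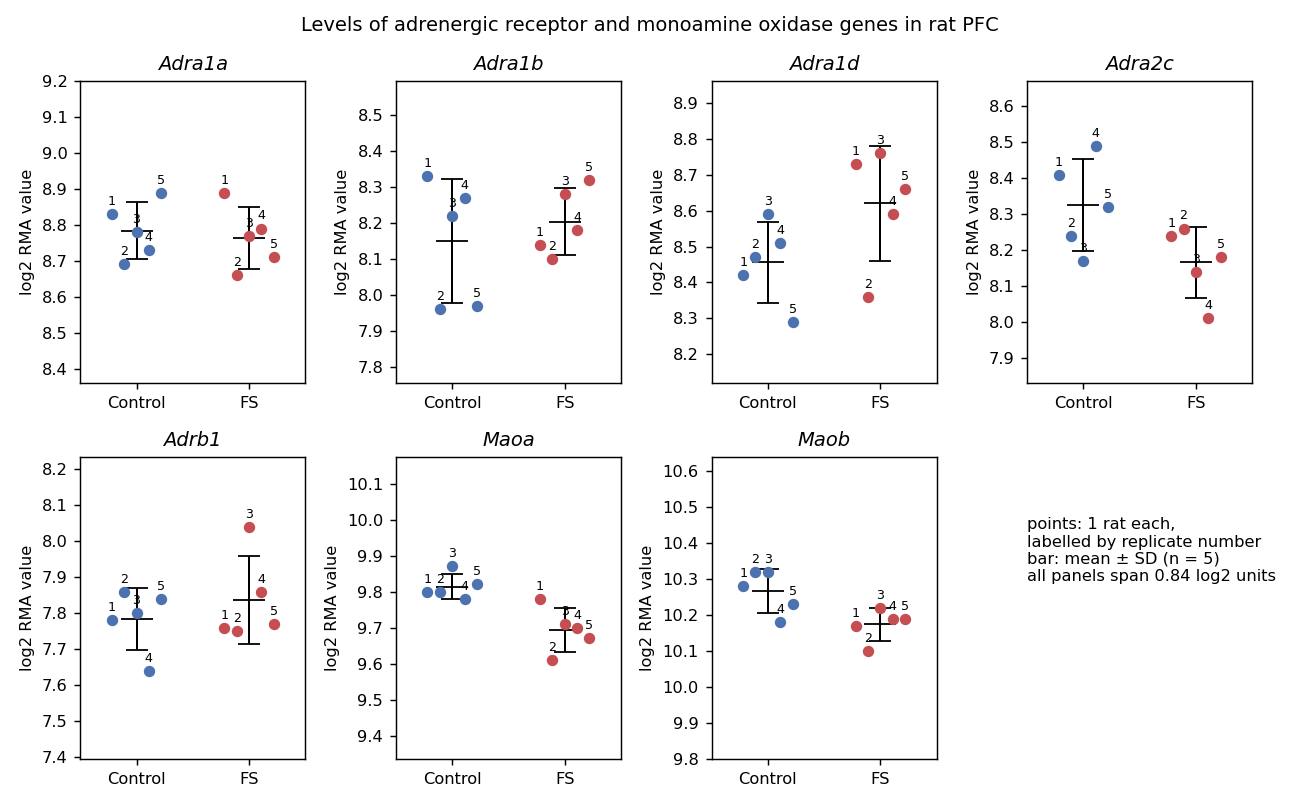
Log2 RMA value (y axis) of each gene in each rat, by group (x axis: controls in blue, FS rats in red), with single rats as points labelled by replicate number and bars for the mean ± SD (n = 5 per group). The Maoa values of FS rats (9.61 to 9.78) all lie below those of controls (9.78 to 9.87), while the groups overlap in the other 6 genes.

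Maoa encodes monoamine oxidase A, the main enzyme that oxidises noradrenaline and serotonin (probe set 10936717). In controls 1 to 5 it was at 9.80, 9.80, 9.87, 9.78 and 9.82, and in FS rats 1 to 5 at 9.78, 9.61, 9.71, 9.70 and 9.67. All 5 FS rats were below all 5 controls, and the nearest pair, FS replicate 1 and control replicate 4, was 0.0089 apart. Groups with no overlap occurred in 1.94% of probe sets, 0.972% with lower values in FS rats. The means were 9.81 ± 0.032 (SD, n = 5) in controls and 9.70 ± 0.059 (SD, n = 5) in FS rats, a difference of -0.12 (95% interval -0.20 to -0.033, adjusted p = 0.396 in limma), or -7.72% on the linear scale. By size, 12.8% of probe sets had a larger absolute difference. The exact permutation test of the group labels gave p = 0.00794, two-sided, the smallest value possible with 5 rats against 5. Any probe set whose groups do not overlap gets this value, so it restates the lack of overlap. With each rat left out in turn, the difference ran from -0.14 to -0.095, and the unadjusted p in limma stayed between 0.0045 and 0.028. Of all tested probe sets, 10.5% varied less between rats of a group than Maoa (residual SD 0.048).

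Maob encodes monoamine oxidase B (probe set 10932211). It was at 10.28, 10.32, 10.32, 10.18 and 10.23 in controls 1 to 5. In FS rats 1 to 5 it was at 10.17, 10.10, 10.22, 10.19 and 10.19. All FS rats lay below the control mean, but the groups overlapped, since control replicate 4 was below 3 of the FS rats. The means were 10.27 ± 0.060 and 10.17 ± 0.046 (SD, n = 5 each), a difference of -0.094 (95% interval -0.18 to -0.0077, adjusted p = 0.480 in limma), or -6.33%. The exact permutation test gave p = 0.0317, two-sided. Its difference ran from -0.12 without control replicate 4 to -0.076 without FS replicate 2. The unadjusted p in limma was 0.0352 with all rats. It was under 0.05 in 5 of the 10 fits that left out a rat, and ran up to 0.089. Maoa and Maob are neighbours on chromosome X, with 0 protein-coding genes between them in the RefSeq annotation, and are read from opposite strands. Between rats of a group, after subtraction of each group's mean, Pearson's r of Maoa with Maob was 0.51 and Spearman's rho 0.45 for 10 rats (permutation p = 0.133 and 0.181, adjusted p = 0.400 and 0.474 over 21 pairs). Without FS replicates 1 and 2, r was 0.53.

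Among the α1 receptor genes, Adra1d was higher in FS rats and Adra1a and Adra1b were near their control levels. The α1D receptor, like its relatives, signals through Gq. Adra1d (probe set 10850087) was at 8.42, 8.47, 8.59, 8.51 and 8.29 in controls 1 to 5. In FS rats 1 to 5 it was at 8.73, 8.36, 8.76, 8.59 and 8.66. FS replicates 1, 3 and 5 were above every control, while FS replicate 2 was below 4 of the 5 controls. The means were 8.46 ± 0.11 and 8.62 ± 0.16 (SD, n = 5 each), a difference of 0.17 (95% interval 0.00037 to 0.33, adjusted p = 0.505 in limma), or 12.2%. The exact permutation test gave p = 0.103, two-sided. Without FS replicate 2 the difference was 0.23 and without control replicate 5 it was 0.12. The unadjusted p in limma was 0.0496 with all rats. It was under 0.05 in only 2 of the 10 fits that left out a rat, and ran up to 0.124. Of all probe sets, 3.96% had a larger absolute difference, and Adra1d also varied more between rats of a group than 87.6% of them.

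Adra1a (probe set 10781207), the α1A receptor gene, was at 8.83, 8.69, 8.78, 8.73 and 8.89 in controls 1 to 5 and at 8.89, 8.66, 8.77, 8.79 and 8.71 in FS rats 1 to 5. The ranges of the groups almost coincided. The difference was -0.020 (95% interval -0.13 to 0.091, adjusted p = 0.917 in limma), and its sign turned without control replicate 5 and without FS replicate 2, to 0.005 in each case. Adra1b (probe set 10742213), the α1B receptor gene, was at 8.33, 7.96, 8.22, 8.27 and 7.97 in controls 1 to 5 and at 8.14, 8.10, 8.28, 8.18 and 8.32 in FS rats 1 to 5. Controls 2 and 5 were below all FS rats, and the other controls lay within or just above the FS range. The difference was 0.052 (95% interval -0.12 to 0.22, adjusted p = 0.853 in limma), and without control replicate 2 it was 0.004. The intervals leave room for differences of up to about 16.5% for Adra1b and 6.52% for Adra1a in the higher direction.

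Adra2c encodes the α2C receptor, which restrains transmitter release from nerve terminals and is abundant in the striatum (probe set 10777517). It was at 8.41, 8.24, 8.17, 8.49 and 8.32 in controls 1 to 5. In FS rats 1 to 5 it was at 8.24, 8.26, 8.14, 8.01 and 8.18. Every FS rat was below the control mean, and FS replicates 3 and 4 were below every control, but the groups overlapped. The means were 8.33 ± 0.13 and 8.17 ± 0.099 (SD, n = 5 each), a difference of -0.16 (95% interval -0.30 to -0.018, adjusted p = 0.463 in limma), or -10.5%. The exact permutation test gave p = 0.0714, two-sided. The difference ran from -0.20 without control replicate 3 to -0.12 without control replicate 4, and the unadjusted p in limma was above 0.05 in 4 of the 10 fits that left out a rat. Striatal medium spiny neuron markers were also lower in FS rats, in 10 of 10 genes, with a list mean that differed by -0.15 (SD 0.52 in controls and 0.33 in FS rats, exact permutation p = 0.587, two-sided). Their part in the Adra2c difference was not tested. Their correlation with Adra2c within groups was 0.48 (Spearman's rho 0.41, permutation p = 0.212 and 0.316, adjusted p = 0.540 and 0.667, r = 0.62 without control replicate 5 and FS replicate 3).

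Adrb1 encodes the β1 receptor, a major β receptor of the forebrain (probe set 10716262). It was at 7.78, 7.86, 7.80, 7.64 and 7.84 in controls 1 to 5 and at 7.76, 7.75, 8.04, 7.86 and 7.77 in FS rats 1 to 5. FS replicate 3 was the highest of all rats, FS replicate 4 was level with the highest control, and the other FS rats lay within the control range. The difference was 0.050 (95% interval -0.084 to 0.19, adjusted p = 0.818 in limma), and without FS replicate 3 it was -0.002.

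**Figure D2:**
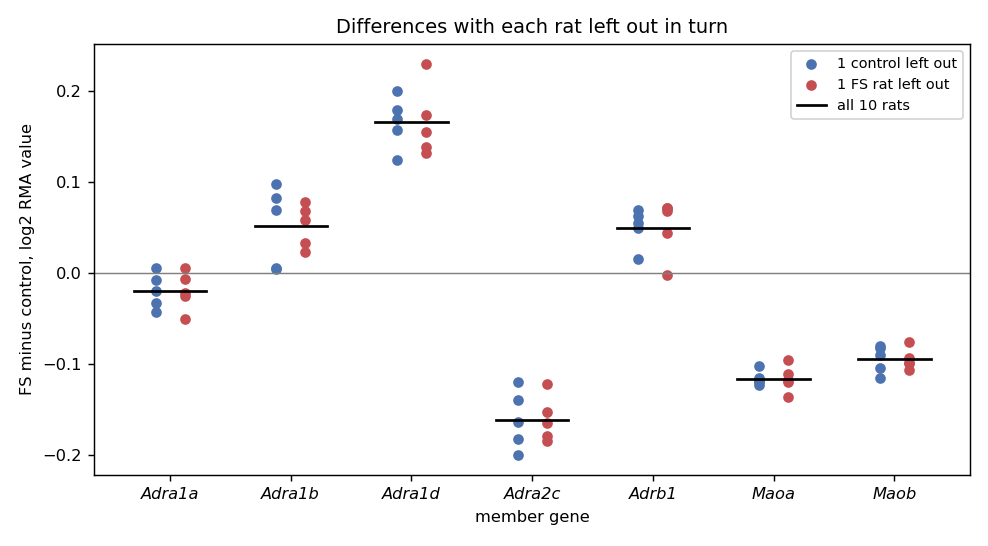
FS minus control difference in log2 RMA value (y axis) for each gene (x axis), with all 10 rats (black line) and with 1 control (blue points) or 1 FS rat (red points) left out. The differences of Maoa (-0.14 to -0.095), Maob, Adra2c, Adra1d and Adra1b (0.004 to 0.098) keep their sign in all 10 fits. Those of Adra1a and Adrb1 cross 0.

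FS replicate 2 was the lowest FS rat in 6 of the 7 genes, all but Adra2c, in which it was the highest. It was also the rat with the highest choroid plexus markers (2.29) and meningeal fibroblast markers (0.88). Without it, the difference was -0.095 for Maoa, -0.076 for Maob, 0.23 for Adra1d and -0.18 for Adra2c. The part of these markers in the results was not tested. How often FS replicate 2 was the lowest FS rat over all probe sets was not computed.

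The other genes of the pathway formed 5 lists of 67 genes. Of these, 60 were measured. None (0) passed in limma after adjustment, and 1 was higher and 1 lower at an unadjusted p under 0.05, or 3.33% against 9.84% of all probe sets. The median absolute difference was 0.040 over the 60 genes. Single differences ran from -0.19 to 0.18, a wider range than that of the 7 genes above (-0.16 to 0.17). With 1 rat left out, between 1 and 6 of the 60 genes had an unadjusted p under 0.05, and between 1333 and 2589 of all 18304 probe sets.

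**Figure D3:**
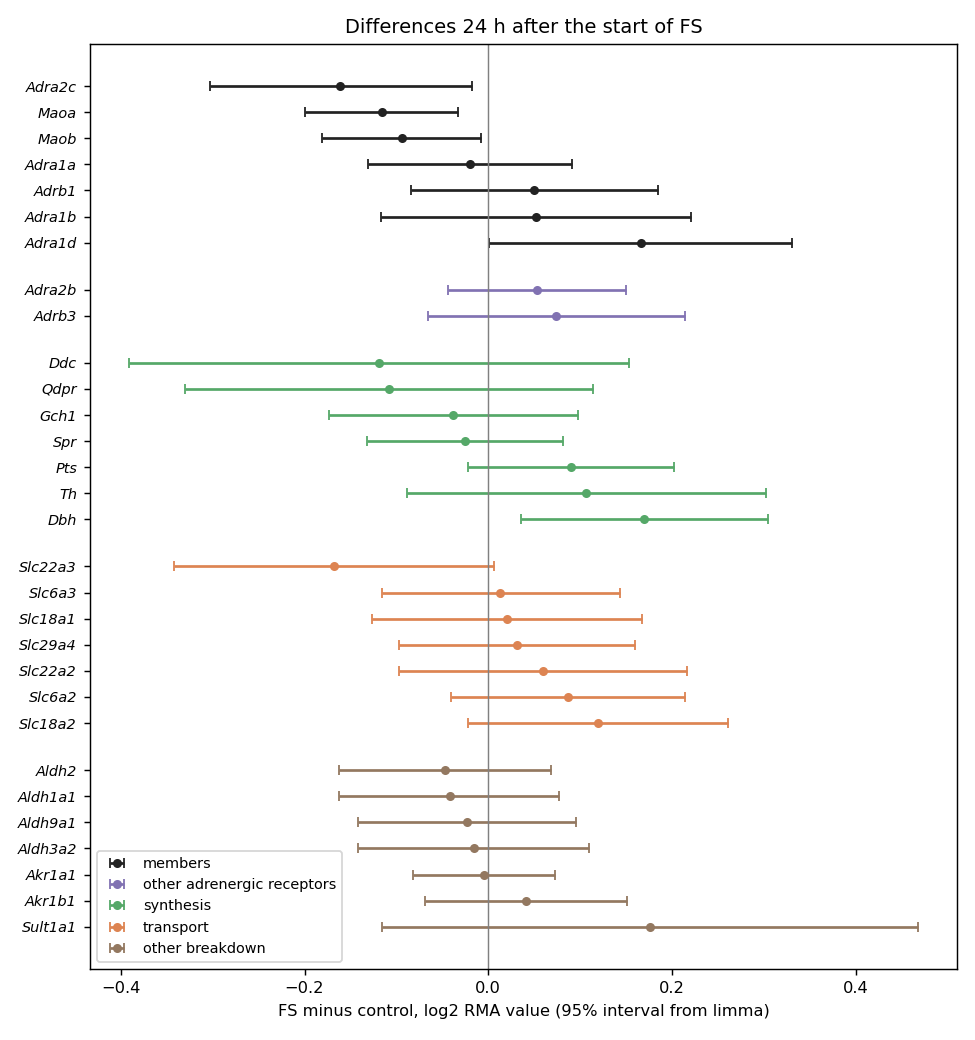
FS minus control difference in log2 RMA value (x axis) for the 7 genes and for the other measured receptors, synthesis, transport and breakdown genes (y axis, coloured by list), with 95% intervals from limma. The intervals of Maoa, Maob, Adra2c, Adra1d and Dbh lie on 1 side of 0 before any adjustment.

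Of the other adrenergic receptors, Adra2b differed by 0.053 and Adrb3 by 0.074 (adjusted p = 0.714 and 0.723 in limma). Among the genes of catecholamine synthesis, Dbh, which encodes the dopamine β-hydroxylase that makes noradrenaline from dopamine, had the smallest p when each gene was read by its brightest probe set. It was at 6.56, 6.52, 6.59, 6.55 and 6.57 in controls 1 to 5 and at 6.49, 6.86, 6.72, 6.84 and 6.72 in FS rats 1 to 5. FS replicates 2 to 5 were above every control, and FS replicate 1 was below every control. All these values lay below the array medians (7.32 to 7.37), and whether they rise above background signal was not tested. The difference was 0.17 (standard error 0.062, adjusted p = 0.434 in limma, exact permutation p = 0.0476, two-sided). Th, which encodes the rate-limiting tyrosine hydroxylase, differed by 0.11 and Ddc, the aromatic amino acid decarboxylase, by -0.12 (adjusted p = 0.716 and 0.778). The genes that make or recycle the tetrahydrobiopterin cofactor of tyrosine hydroxylase differed by -0.038 for Gch1, 0.090 for Pts, -0.025 for Spr and -0.11 for Qdpr (adjusted p = 0.868, 0.578, 0.888 and 0.752). Spr has a further, dimmer probe set, in which the difference was 0.14 (adjusted p = 0.353), so its 2 probe sets differ in sign, and the p of the dimmer one (unadjusted p = 0.00264 in limma) was below that of Dbh (0.0174). The noradrenergic markers Th, Dbh, Slc6a2 and Phox2a had mean levels between 6.59 and 7.19, also below the array medians. Their list mean differed by 0.092 (exact permutation p = 0.0635, two-sided), with controls between -0.10 and 0.046 and FS rats between -0.057 and 0.13.

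Among transporters, 6 of 7 measured genes had a positive difference, none of which passed. Over all 18304 probe sets, 9203 had a positive difference. All values of Slc6a2, Slc6a3, Slc18a2, Slc22a2 and Slc22a3 lay below the array medians (7.32 to 7.37). Whether they rise above background signal was not tested. Slc6a2, the noradrenaline transporter gene, differed by 0.087 and Slc6a3, the dopamine transporter gene, by 0.013 (adjusted p = 0.632 and 0.959 in limma). The vesicular monoamine transporter genes Slc18a1 and Slc18a2 differed by 0.021 and 0.12 (adjusted p = 0.939 and 0.556). For the low-affinity uptake transporters the differences were 0.060 for Slc22a2, 0.031 for Slc29a4 and -0.17 for Slc22a3 (adjusted p = 0.815, 0.884 and 0.516). Slc22a3, which encodes a corticosterone-sensitive organic cation transporter, was between 6.69 and 7.09 in controls and between 6.52 and 6.86 in FS rats, so the groups overlapped.

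Among the enzymes that act beside monoamine oxidase, 5 of 7 measured genes had a negative and 2 a positive difference, none of which passed. Over all 18304 probe sets, 9101 differences were negative and 9203 positive. The aldehyde dehydrogenase genes, whose enzymes oxidise the aldehydes that monoamine oxidase forms, differed by -0.047 for Aldh2, -0.042 for Aldh1a1, -0.016 for Aldh3a2 and -0.023 for Aldh9a1. The reductase genes Akr1a1 and Akr1b1 differed by -0.005 and 0.041, and the sulfotransferase gene Sult1a1 by 0.18. Their adjusted p-values lay between 0.678 and 0.978 in limma. Whether these differences are unlike that of Maoa was not tested.

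In the list of receptor signalling genes, 37 of 40 were measured, 19 with a positive and 18 with a negative difference. The lowest moderated t belonged to Grk3 and Grk6, kinases that phosphorylate active receptors and so desensitise them. Grk3 was between 8.90 and 8.99 in controls and between 8.63 and 8.96 in FS rats, with a difference of -0.14 (adjusted p = 0.451 in limma). Grk6 was between 8.42 and 8.59 in controls and between 8.40 and 8.42 in FS rats, with no overlap but a gap of only 0.0041, and differed by -0.078 (adjusted p = 0.519 in limma). The highest belonged to Gnai1 and Gnaq, the α subunits through which α2 and α1 receptors act, with differences of 0.082 and 0.063 (adjusted p = 0.526 and 0.632).

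The genes were then compared with markers of cell types, to see which of them varied with the makeup of the tissue from rat to rat. For 14 marker lists and 7 genes, 98 correlations across the 10 rats were computed after each group's mean had been subtracted. After adjustment, 0 passed by Pearson's r (smallest adjusted p = 0.0519) and 10 had an unadjusted permutation p under 0.05. Adra1d correlated most, with cortical excitatory neuron markers (Pearson's r = 0.91, Spearman's rho = 0.95, permutation p = 6.6e-04 and 4.1e-04, adjusted p = 0.0519 and 0.0402). Without FS replicate 2 and control replicate 5, the rats farthest out on the marker mean, r was 0.74 (permutation p = 0.0428, adjusted p = 0.980), and rho was not computed without them. With upper layer neuron markers, Adra1d had r = 0.89 and rho = 0.87 (permutation p = 0.00106 and 0.0054, adjusted p = 0.0519 and 0.188), and r = 0.85 without FS replicates 1 and 2. The rats with low Adra1d, control replicate 5 and FS replicate 2, were also low for both marker lists. The marker means hardly differed between the groups, by -0.016 for excitatory and 0.032 for upper layer markers (exact permutation p = 0.730 and 0.484, two-sided).

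**Figure D4:**
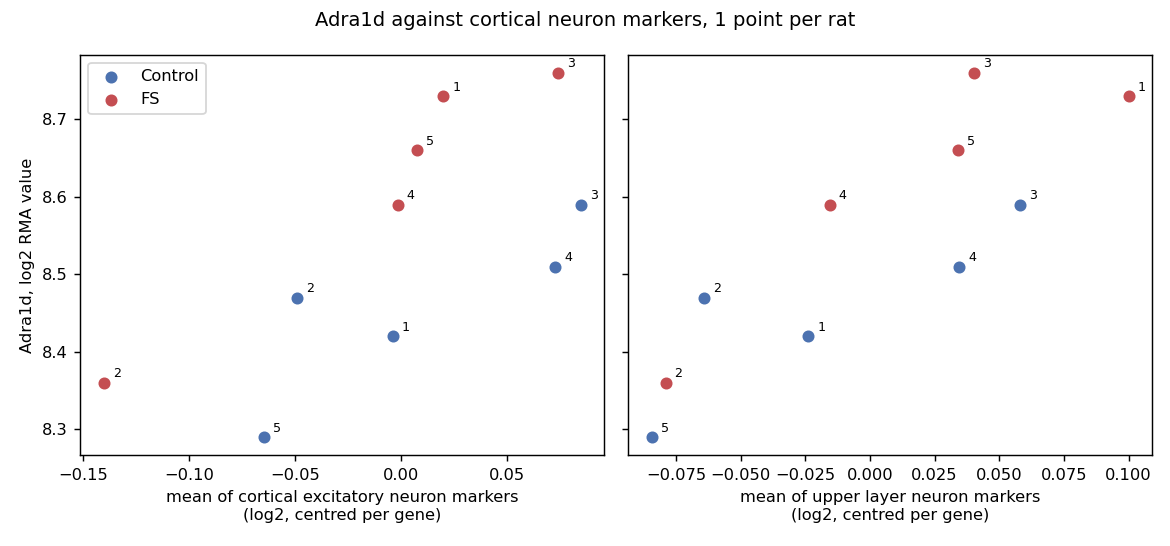
Log2 RMA value of Adra1d (y axis) against the mean of cortical excitatory neuron markers (left x axis) and of upper layer neuron markers (right x axis), both in log2 units centred per gene, for controls (blue) and FS rats (red) labelled by replicate number. Within each group Adra1d is higher in rats with higher markers, and most FS rats lie above the controls of a like marker level.

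With the excitatory marker mean as a covariate in limma, a setting chosen after the data were seen, the Adra1d difference was 0.19 (95% interval 0.10 to 0.28, adjusted p = 0.307). With upper layer, astrocyte or endothelial markers as the covariate it was 0.11, 0.12 and 0.074 (adjusted p = 0.397, 0.776 and 0.893). Adra2c correlated most with endothelial markers (r = 0.72, rho = 0.65, permutation p = 0.0161 and 0.0589, adjusted p = 0.393 and 0.551, r = 0.63 without FS replicates 2 and 4). Endothelial markers lay between -0.010 and 0.063 in controls and between -0.10 and 0.053 in FS rats, with 5 of 6 lower in FS rats. Their list mean differed between the groups by -0.057 (exact permutation p = 0.0794, two-sided). A fit with this covariate therefore does not fully separate the markers from the group. With their mean as a covariate, the Adra2c difference was -0.058 (95% interval -0.20 to 0.081, adjusted p = 0.888). With excitatory, upper layer or astrocyte markers as the covariate it was -0.165, -0.163 and -0.113 (adjusted p = 0.448, 0.394 and 0.734 in limma). Maoa correlated most with astrocyte markers, inversely (r = -0.81, rho = -0.89, permutation p = 0.0102 and 0.00575, adjusted p = 0.332 and 0.188, r = -0.73 without FS replicates 2 and 5). The astrocyte means of all rats lay between -0.040 and 0.029, a narrow range. Across the 4 covariates the Maoa difference was between -0.15 and -0.11 and that of Maob between -0.13 (endothelial) and -0.090 (excitatory). The other 10 marker lists, choroid plexus and meningeal markers among them, were not run as covariates, and the part of cell makeup in the differences of the 7 genes was not tested further.

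**Figure D5:**
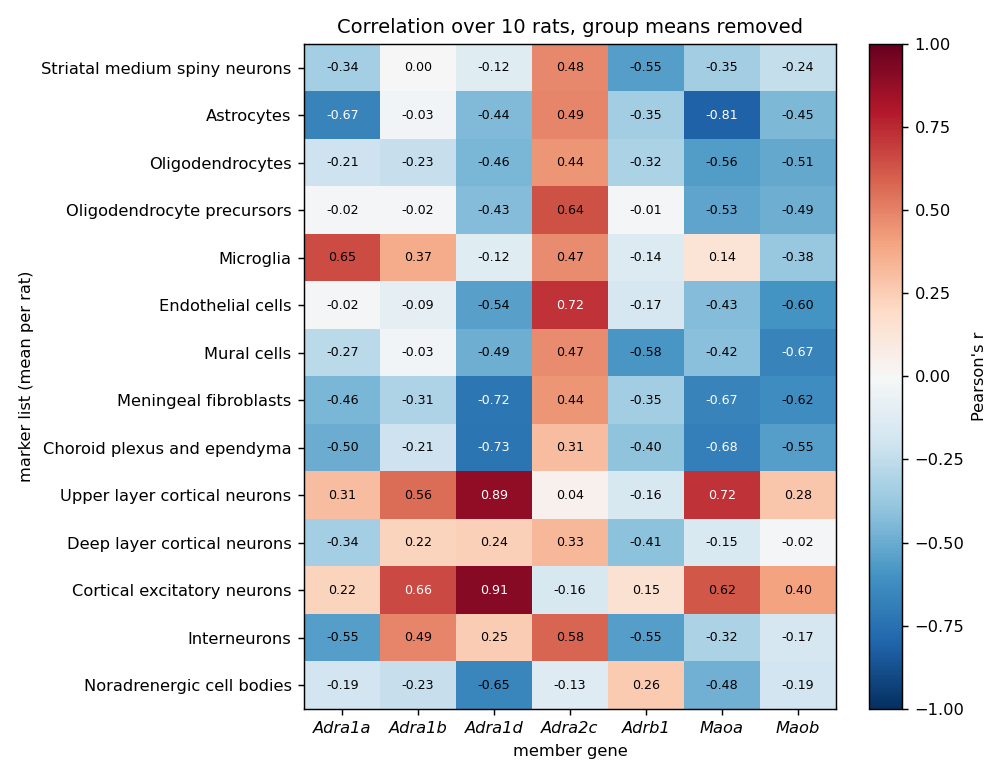
Pearson's r (colour and printed value) between each gene (x axis) and the mean of each marker list (y axis) over 10 rats, with group means removed. The highest value is that of Adra1d with cortical excitatory neurons (0.91) and the lowest that of Maoa with astrocytes (-0.81).

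Among the 7 genes themselves, 0 of 21 pairs passed after adjustment (smallest adjusted p = 0.266), and 3 had an unadjusted permutation p under 0.05. Maob and Adra2c were inversely related (r = -0.74, rho = -0.83, permutation p = 0.0347 and 0.0144, adjusted p = 0.266 and 0.208), with r = -0.53 without control replicates 3 and 4. Maoa and Adra1a had r = 0.72 and rho = 0.72 (permutation p = 0.0347 and 0.039, adjusted p = 0.266 and 0.253), with r = 0.35 without FS replicates 1 and 2. Maob and Adrb1 had r = 0.66 and rho = 0.66 (permutation p = 0.0469 and 0.0482, adjusted p = 0.266 and 0.253), with r = 0.28 without FS replicate 3 and control replicate 4. With those rats left out, the permutation p of the 3 relations was 0.211, 0.515 and 0.53 in turn (adjusted p = 0.992 each). None of the 3 thus stayed under an unadjusted p of 0.05, and the last 2 rested largely on the rats left out.

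The genes whose pattern over the 10 rats was most like that of each member, by Pearson's r after subtraction of group means, were picked out of all genes tested and carry no test. For Adra1d they were Bptf (0.982), Tmem67 (0.974) and Gsk3b (0.955), and for Adra1a Rps24l3 (0.959), Tmem102 (0.933) and Cabs1 (0.920). For Adra1b they were Scaf1 (0.939), Gli2 (0.937) and Ptpa (0.927), for Adra2c Coro1b (0.960), Sc5d (0.955) and Fndc3b (0.954), and for Adrb1 Vill (0.932), Shc2 (0.926) and Mybl2 (0.918). For Maoa they were Magi3 (0.953), Pdhb (0.936) and Nemf (0.928). For Maob they were Atp2b4 (0.928) and the mitochondrial ribosomal protein genes Mrpl19 (0.919) and Mrpl14 (0.917).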

How the data were processed

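PFC RNA of 5 FS rats and 5 controls was hybridized by the authors to Affymetrix whole-transcript Rat Gene ST arrays, read with oligo 1.58.0 and normalized with RMA, per the submitters' processing notes. The values deposited by the authors are log2 RMA values, 1 for each probe set on each array. RMA gives the arrays a like distribution, so a shift shared by most genes would not show. Arrays have no read depth; precision is set by the number of rats. For the probe annotation, the genome build was not given in the sources used here. Names came from the platform annotation of the probe sets (18644 with 1 symbol, 962 with several, 9608 with none), and the probe set with the highest mean stood for a gene. limma 3.58.1 in R 4.3.3 compared the groups without a block, after the study's methods, over 18304 probe sets with a mean above 4. Exact permutation tests and correlations (100000 permutations within groups) used Python 3.11.15 and numpy 2.4.6. The functions were tested on simulated data. Promoter windows are from RefSeq (GRCr8).

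Members and lists were chosen with earlier results of these data known. The rule for named genes took all members, every measured gene of the 4 short lists, the 2 highest and 2 lowest by moderated t of the signalling list, and the 3 genes most like each member. Alternatives changed the rats included, the scaling, the filter, array weights, the variance prior, a replicate block and marker covariates.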

Additional observations from a re-analysis of the deposited data

Results flagged for a closer look

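In groups of 5 rats, 5 of 88 had a rat whose gap to the nearest other rat was above Dixon's critical value, and chance flags about 1 in 20. None was a group of the 7 genes. FS replicate 2 was at 2.29 for choroid plexus and ependyma markers, with the next FS rat at 0.20. Control replicate 3 was lowest for oligodendrocyte markers (-0.37, next 0.039) and for oligodendrocyte precursor markers (-0.14, next 0.00077). FS replicate 5 was lowest for Spr (7.46, next 7.63), and control replicate 5 highest for Slc6a3 (6.62, next 6.40).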

How the results depend on the processing

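The 7 differences kept their sign, and stayed above an adjusted p of 0.05 in limma, under all alternatives run, with these exceptions in sign: Adra1a was at 0.005 without control replicate 5 and without FS replicate 2 and at 0.004 after quantile normalization, and Adrb1 was at -0.002 without FS replicate 3. With 1 rat left out they ran from -0.14 to -0.095 (Maoa), -0.12 to -0.076 (Maob), -0.20 to -0.12 (Adra2c), 0.12 to 0.23 (Adra1d), -0.051 to 0.005 (Adra1a), 0.004 to 0.098 (Adra1b) and -0.002 to 0.071 (Adrb1). In the exact permutation test, which adjusts for nothing, the differences of Maoa (-0.12) and Maob (-0.094) had p = 0.00794 and 0.0317. With 1 rat left out, 1 probe set of the whole table passed without control replicate 2 and 0 otherwise. The count of the 7 genes with an unadjusted p under 0.05, 4 over all rats, ran from 1 (without control replicate 1) to 3, and was 2 with an astrocyte and 2 with an endothelial covariate. That of pathway genes, 2 of 60 over all rats, ran from 1 to 6 (without FS replicate 1), and was 4 after quantile normalization, 4 with an upper layer and 6 with an astrocyte covariate. Over all 18304 probe sets the count was 1802 with all rats and ran from 1333 to 2589 with 1 left out. It was 1757 without FS replicate 1 and 1585 after quantile normalization. With an upper layer, astrocyte or endothelial covariate it was 2227, 1367 and 1268. The covariates were chosen after seeing the data. The cause of these shifts was not tested.

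Of 5 pairs of same-numbered rats, 2 correlated over 0.1 in their deviations from the group means, short of every pair, so the numbers were not used as pairs. Of the 10 rats, 5 correlated best with their own number in the other group. The correlations of same-numbered rats ran from -0.162 (number 4) to 0.231 (number 3). This count was not tested, and the labels do not state a pairing. With the replicate block, 3 of the 7 genes, 6 of the 60 pathway genes and 1803 of all 18304 probe sets had an unadjusted p under 0.05. The Maoa difference was -0.12 (adjusted p = 0.481 in limma), and 0 probe sets passed. Other probe sets of a gene could not be tried, as each of the 7 has 1.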

Other observations

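The protein-coding neighbours of Maoa and Maob on chromosome X were looked up after their values were seen, taking 5 genes on either side, of which 6 were measured. On the Maob side, the difference was -0.22 for Ndp, the norrin gene and the nearest neighbour, -0.14 for Efhc2, -0.073 for Fundc1 and -0.13 for Dusp21. Ndp lay between 8.95 and 9.01 in controls and between 8.65 and 8.80 in FS rats, with no overlap (unadjusted p = 6.8e-05, adjusted p = 0.280 in limma). Beyond Maoa, the differences were -0.022 for Cask and 0.047 for Gpr34. The adjusted p-values of these genes lay at 0.280 or above. Over 646 probe sets of X chromosome genes, 45.5% had a negative difference and the median was 0.008, against 49.7% and a median of 0.000 over all probe sets tested.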
